A study of Mus musculus with 7 samples.

Results

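The immunity-related GTPases are a family of interferon-induced GTP-binding proteins through which mouse cells attack vacuoles that hold intracellular parasites and bacteria. The members described here, Irgm1, Irgm2, Igtp, Iigp1, Tgtp1 and Tgtp2, were taken by symbol and are 6 of the 24084 genes listed in at least 1 library and 6 of the 16226 genes tested. All 6 were listed in all 7 libraries and passed the filter on low counts. The RNA came from tumor-associated macrophages, F4/80+ cells isolated by flow cytometry from subcutaneous tumors of Lewis lung carcinoma (LLC), a mouse lung cancer line. The 3 Dicer1-deleted libraries (D–/–) came from mice homozygous for LysM-Cre and for the Dicer lox allele, in which Cre, driven by the lysozyme M gene, deletes Dicer1 in myeloid cells. The 4 control libraries (D+/+) came from mice that were also homozygous for LysM-Cre, with Dicer+/+. Cre, tumor and sort were therefore shared by both groups, and the labels give neither age nor sex. The series title names macrophage polarization and tumor response to immunotherapy as the study's subject.

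Interferon gamma, a cytokine of T cells and natural killer cells, switches on most genes of this family in macrophages. The family divides by the loop that holds the phosphates of the bound nucleotide. Irgm1, Irgm2 and Igtp (also called Irgm3) carry a methionine there, sit on the cell's own membranes and act as regulators that keep the other members inactive. Iigp1 (Irga6) and the near-identical pair Tgtp1 and Tgtp2 (Irgb6) carry a lysine and are effectors that coat and disrupt the vacuole around the parasite.

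The loop is shown for the members on chromosome 11 as 24 bases of the GENCODE coding sequence on GRCm38, because it carries the letters that separate regulators from effectors, with the codon of the methionine or lysine in capitals.
Irgm1, coding bases 247 to 270: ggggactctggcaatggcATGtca
Irgm2, coding bases 247 to 270: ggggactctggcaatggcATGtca
Igtp, coding bases 271 to 294: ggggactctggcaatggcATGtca
Tgtp1, coding bases 187 to 210: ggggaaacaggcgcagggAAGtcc
Tgtp2, coding bases 187 to 210: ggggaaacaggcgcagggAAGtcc
The 3 regulators had the same 24 bases, as had both effectors shown. Iigp1 had the lysine codon AAG within its loop, which spans coding bases 226 to 249. Over the whole coding sequence the regulators were 65.8% to 71.5% identical to each other. Each regulator was 51.4% to 57.5% identical to the effectors. Tgtp1 and Tgtp2 differed at 4 of 1245 coding bases (99.7% identity), which, counted from the first coding base and given as Tgtp1 to Tgtp2, are G270C, C408T, C729T and C735A.

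The sequence upstream of the transcript start is shown for the 5 members matched in the RefSeq promoter table (GRCm38.p6), because the family is induced by the same cytokine. Capitals mark letter matches to GAS (TTCNNNGAA), the gamma-activated sequence of interferon gamma responses, and to ISRE (GAAANNGAAA), the element that interferon regulatory factors bind. Both were searched on both strands. Each line gives the 100 bases before the start, written 5′ to 3′ on the strand of the gene.
Irgm1, chr11:48871421-48871520, minus strand: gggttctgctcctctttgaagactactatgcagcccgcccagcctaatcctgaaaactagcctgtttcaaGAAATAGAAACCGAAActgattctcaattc
Irgm2, chr11:58214877-58214976, plus strand: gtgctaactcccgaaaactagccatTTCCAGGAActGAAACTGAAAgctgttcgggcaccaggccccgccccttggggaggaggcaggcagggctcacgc
Igtp, chr11:58199456-58199555, plus strand: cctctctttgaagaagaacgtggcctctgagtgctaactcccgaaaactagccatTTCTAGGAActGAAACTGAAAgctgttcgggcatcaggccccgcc
Tgtp1, chr11:48992247-48992346, minus strand: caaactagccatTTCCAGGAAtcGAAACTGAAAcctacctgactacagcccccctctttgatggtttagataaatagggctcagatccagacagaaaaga
Tgtp2, chr11:49064213-49064312, minus strand: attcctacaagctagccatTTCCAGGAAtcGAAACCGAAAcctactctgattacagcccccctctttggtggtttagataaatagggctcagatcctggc
In Irgm2, Igtp, Tgtp1 and Tgtp2 a GAS match was followed after 2 bases by an ISRE match. The GAS match began 75 bases before the start in Irgm2, 45 in Igtp, 88 in Tgtp1 and 81 in Tgtp2. Irgm1 had 2 overlapping ISRE matches and no GAS match in the 300-base window searched. In GENCODE an exon of a non-coding Irgm1 transcript covers the Irgm1 stretch, and an exon of a protein-coding Tgtp1 transcript covers 12 bases of the Tgtp1 stretch.

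Over all 32851 promoters of 300 bases in the table, 8.30% held a GAS match, 3.44% an ISRE match and 0.454% both. The 2-base spacing was read from the members and then searched, so they are among its matches by construction. GAS, 2 bases and ISRE in 1 run occurred in 5 promoters (0.0152%), those of Igtp, Irgm2, Tgtp1, Tgtp2 and the family gene Gm12185. These are matches of letters, and binding was not measured.

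**Figure D1:**
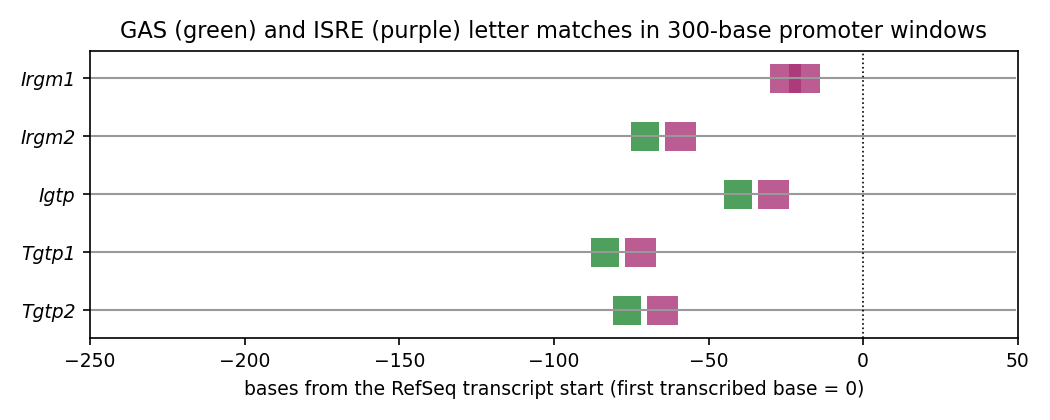
Letter matches to GAS (green) and ISRE (purple) in the 300-base window of 5 members, by distance in bases from the RefSeq transcript start, with the gene's direction from left to right. In Irgm2, Igtp, Tgtp1 and Tgtp2 the matches stand 2 bases apart, while Irgm1 has 2 overlapping ISRE matches.

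The members lie in 3 groups of genes in the GENCODE annotation of GRCm38, and all 6 are annotated as protein-coding. Irgm1 (ENSMUSG00000046879) is on chromosome 11 at 48861968 to 48871683, minus strand, with Tgtp1 (ENSMUSG00000078922) at 48985327 to 48994172 and Tgtp2 (ENSMUSG00000078921) at 49057194 to 49064206 on the same strand nearby. Igtp (ENSMUSG00000078853), at 58199556 to 58207591, and Irgm2 (ENSMUSG00000069874), at 58199618 to 58222782, form the next group on chromosome 11, plus strand. Iigp1 (ENSMUSG00000054072) is on chromosome 18 at 60376027 to 60392634, plus strand.

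The libraries held 43.0 to 51.2 M uniquely placed reads, with both mates of a pair counted, and levels below are counts-per-million (CPM) scaled by TMM factors. Dicer1, the targeted gene, stood at 7.85, 6.86 and 7.85 CPM in Dicer1-deleted libraries 1 to 3. In control libraries 1 to 4 it had 15.7, 15.8, 18.6 and 17.1 CPM. Its log2 fold change was -1.16 ± 0.23 (SE), with an edgeR adjusted p of 0.150 and a DESeq2 adjusted p of 4.96e-05. The source of the Dicer1 reads left in the Dicer1-deleted libraries was not tested. Macrophage markers summed to 10930 to 17590 CPM in the Dicer1-deleted and 8997 to 17730 CPM in the control libraries. Of 11 tested, 8 were positive with a median log2 fold change of 0.14, and 2 had an unadjusted p under 0.05 in edgeR. In edgeR 0 passed, and DESeq2 called 1 as lower. Dicer1-deleted library 2 stood apart. Its sample quality weight in limma was 0.232, against 0.924 to 2.12 in the others. Relative to the mean library, its median log2 ratio was 0.66 for transcripts up to 1500 bases and -0.31 for those over 3000 bases, among genes of at least 10 CPM. Control libraries 1 and 2 leaned the same way, at 0.27 and 0.31 for the short and -0.12 and -0.19 for the long transcripts. The remaining libraries of both groups leaned the other way, at -0.38 to -0.23 and 0.14 to 0.18. Separate animals are not stated for the libraries, so the p-values speak of library spread, which may be technical. In bulk RNA, fewer cells of a type and less RNA per cell cannot be told apart.

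All 6 GTPases had higher mean levels in Dicer1-deleted than in control macrophages, by log2 fold changes of 0.48 to 0.99 with a median of 0.61. No member passed the test in edgeR over all genes, and 2 had an unadjusted p under 0.05, both of the effector pair Tgtp1 and Tgtp2. In edgeR 0.0247% of all genes tested passed in either direction, and 8.01% had an unadjusted p under 0.05. In DESeq2 1 member passed, Tgtp1, where 0.925% of all genes passed as higher, and in limma-voom, with or without sample quality weights, none did. Igtp, Tgtp1 and Tgtp2 were higher in every Dicer1-deleted library than in any control library. That was so for 3 of 6 members, the near-identical copies Tgtp1 and Tgtp2 among them, and for 3.86% of all genes tested. These copies share most of their sequence, so they do not count as independent members. Over all genes tested the median was 0.03, and 52.6% of the fold changes were positive.

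The regulator Irgm1 is found at the Golgi and mitochondria and is needed by mice for resistance to several intracellular pathogens. It stood at 371, 126 and 261 CPM in Dicer1-deleted libraries 1 to 3, and control libraries 1 to 4 had 163, 137, 184 and 239 CPM. The groups overlapped, since Dicer1-deleted library 2 was below every control. The log2 fold change was 0.48 ± 0.38 (SE, edgeR adjusted p = 0.946), with a 95% interval of -0.36 to 1.33.

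Irgm2 is a regulator found mainly at the Golgi. Its level was 102.5, 31.6 and 73.7 CPM in the Dicer1-deleted libraries, against 35.9, 27.7, 44.5 and 74.2 CPM in the controls. Dicer1-deleted library 2 was again in the low range of the controls, and control library 4 was as high as Dicer1-deleted library 3. The log2 difference in edgeR was 0.60 ± 0.44 (SE, edgeR adjusted p = 0.926).

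Igtp, the regulator of the endoplasmic reticulum and lipid droplets, had 192, 127 and 125 CPM in the Dicer1-deleted libraries. The controls had 107, 101, 83.9 and 115 CPM. The groups did not overlap, with Dicer1-deleted library 1 far above the rest. The log2 fold change was 0.54 ± 0.26 (SE), with an edgeR adjusted p of 0.695 and a DESeq2 adjusted p of 0.431.

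The effector Iigp1, a GTPase that loads onto the vacuole of Toxoplasma, varied most. It stood at 544, 117 and 305 CPM in the Dicer1-deleted libraries, against 154, 214, 33.3 and 437 CPM in the controls. Control library 4 was above 2 of the Dicer1-deleted libraries, and control library 3 was the lowest of all. Its coefficient of variation was 80.8% in the controls and 66.4% in the Dicer1-deleted libraries, and its log2 fold change was 0.62 ± 0.74 (SE, edgeR adjusted p = 0.996).

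Tgtp1, an effector of the same vacuole coat, had 142, 99.2 and 92.8 CPM in the Dicer1-deleted libraries, against 55.4, 61.0, 39.5 and 67.8 CPM in the controls. Every Dicer1-deleted library was above every control. This was a 1.99-fold difference, with a log2 fold change of 0.99 ± 0.28 (SE) and a 95% interval of 0.37 to 1.62. The edgeR adjusted p was 0.292 and the DESeq2 adjusted p was 0.0358. The DESeq2 call did not survive the loss of most libraries. It was kept in 1 of 7 fits that each left out a library, the one without control library 4 (adjusted p = 0.0337). In the other 6 DESeq2 fits the adjusted p was 0.307, 0.0508 and 0.0628 without Dicer1-deleted libraries 1 to 3 and 0.178, 0.0892 and 0.136 without control libraries 1 to 3.

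Tgtp2, its copy, had 232, 150 and 159 CPM in the Dicer1-deleted libraries, against 93.3, 105, 64.1 and 123 CPM in the controls. The groups again stood apart, with control library 3 the lowest for both copies. The log2 difference in edgeR was 0.90 ± 0.30 (SE), with an edgeR adjusted p of 0.390 and a DESeq2 adjusted p of 0.110.

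**Figure D2:**
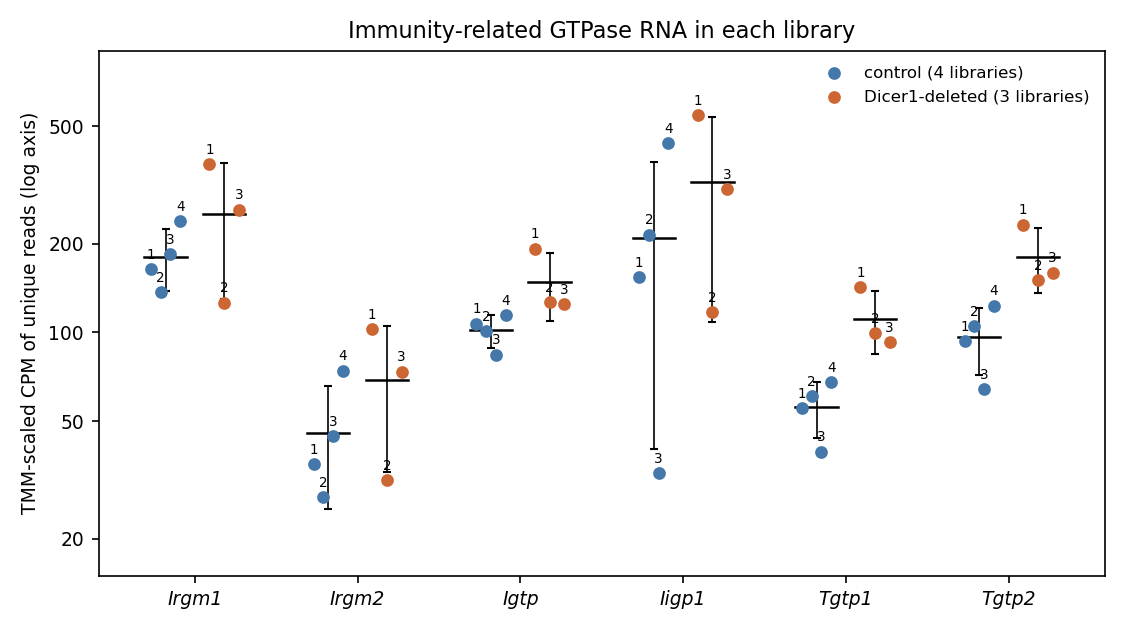
TMM-scaled CPM (log axis) of the 6 GTPases in 4 control libraries (blue) and 3 Dicer1-deleted libraries (orange), numbered by replicate, with the mean and SD in black. Igtp, Tgtp1 and Tgtp2 show no overlap between groups, while Dicer1-deleted library 2 falls among or below the controls for Irgm1, Irgm2 and Iigp1.

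Because Tgtp1 and Tgtp2 are close copies, their reads were also added. The sum was 374, 250 and 252 CPM in the Dicer1-deleted libraries, against 149, 166, 104 and 191 CPM in the controls, again without overlap. The log2 fold change of the sum was 0.94 ± 0.30 (SE), with an edgeR adjusted p of 0.364 and a DESeq2 adjusted p of 0.0750. Tgtp1 held 36.8% to 39.7% of the reads of the pair in the Dicer1-deleted libraries and 35.5% to 38.1% in the controls.

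The deposited split between the copies is uncertain. Of all 50-base stretches of their longest coding transcripts, 89.4% of those of Tgtp1 occurred in Tgtp2 and 89.8% of those of Tgtp2 in Tgtp1. For 200-base fragments, both 50-base ends were shared at 82.4% of positions in Tgtp1 and 82.8% in Tgtp2. The files nevertheless recorded 7.74% to 10% of the reads of Tgtp1 and 5.03% to 6.70% of those of Tgtp2 as placed on several genes. How the authors' software placed pairs that match both copies is not given in the sources used here.

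Igtp and Irgm2 share 162 exonic bases on the same strand, which are 8.01% of Igtp and 4.39% of Irgm2. Reads placed on several genes made up 1.41% to 1.93% of Igtp and 1.37% to 1.91% of Irgm2. Tgtp1 shares 223 exonic bases, 6.96% of its total, with the family gene Gm12185 on the same strand. For Iigp1 the share of reads placed on several genes was at most 0.757%, and for Irgm1 at most 0.0316%.

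**Figure D3:**
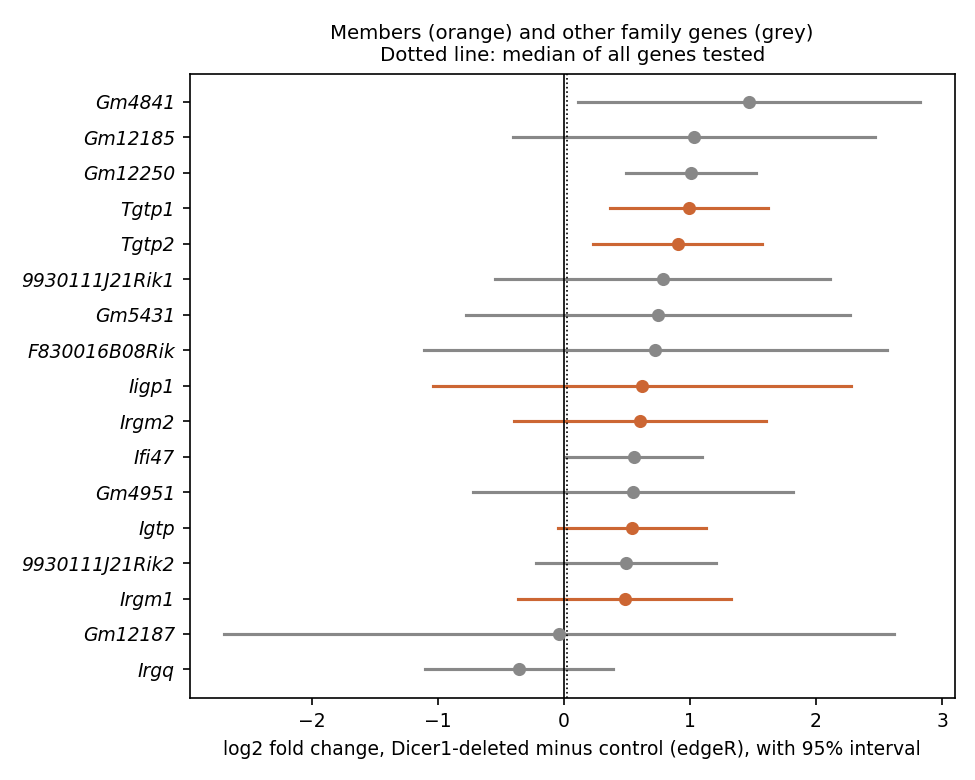
Log2 fold changes of Dicer1-deleted minus control in edgeR, with 95% intervals, for the 6 members (orange) and other family genes tested (grey). Among the members, the intervals of Tgtp1 and Tgtp2 lie above 0, and those of the other 4 include it.

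Leaving out a library moved the fold changes of Irgm1, Irgm2 and Iigp1 over wider ranges than those of Igtp and the Tgtp pair. Dicer1-deleted library 1 was the highest of all 7 for each member, and control library 4 the highest control for each. Without Dicer1-deleted library 1 the log2 fold change was 0.10 for Irgm1, 0.21 for Irgm2, 0.31 for Igtp and 0.01 for Iigp1. Tgtp1 stood at 0.78 and Tgtp2 at 0.68 in that fit. Without Dicer1-deleted library 2 the values were 0.80 for Irgm1, 0.94 for Irgm2, 0.63 for Igtp and 1.0 for Iigp1, with 1.06 for Tgtp1 and 1.01 for Tgtp2. No member passed in either fit. Without Dicer1-deleted library 2, 4 of 6 members showed no overlap, Irgm1 being added, where 10.5% of all genes did so. Without control library 3 the 3 members without overlap were Igtp, Tgtp1 and Tgtp2, beside 5.94% of all genes. A difference in fold change between members was not tested.

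**Figure D4:**
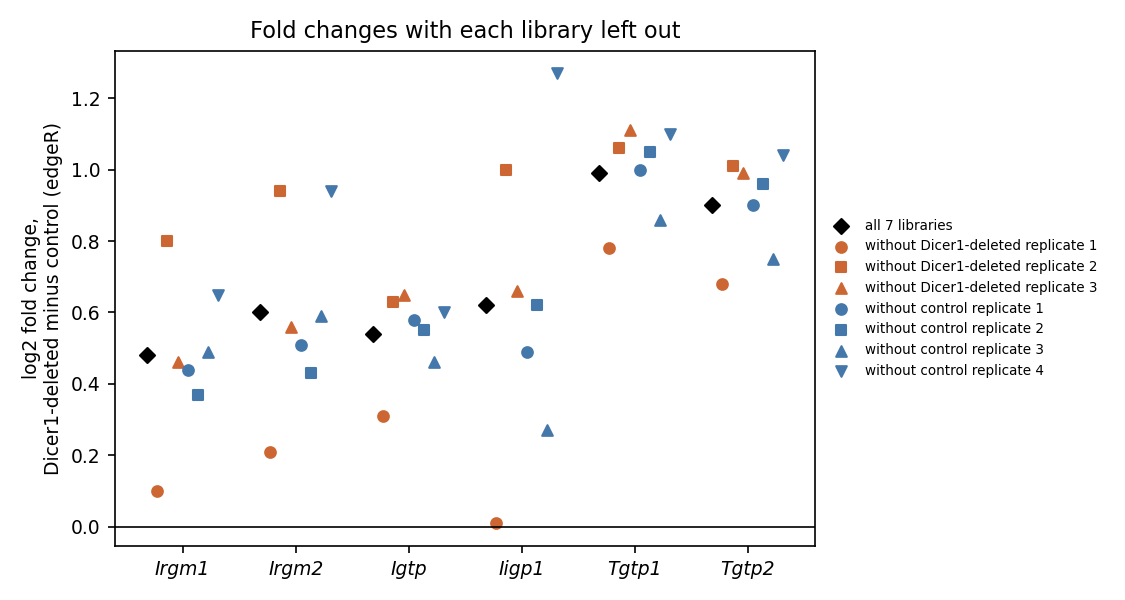
Log2 fold changes (Dicer1-deleted minus control, edgeR) of the 6 members with all 7 libraries (black diamonds) and with each library left out (orange for Dicer1-deleted, blue for control). Every value is positive, and Iigp1 spans 0.01 to 1.27, whereas Tgtp1 spans 0.78 to 1.11.

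Dicer1-deleted library 2 divided the members. Its level was 0.399 of the mean of the other Dicer1-deleted libraries for Irgm1, 0.358 for Irgm2 and 0.276 for Iigp1. For Igtp the ratio was 0.799, for Tgtp1 0.845 and for Tgtp2 0.769. The longest transcripts are 3832 bases for Irgm1, 3528 for Irgm2 and 3121 for Iigp1. They are 2022 bases for Igtp, 2823 for Tgtp1 and 2810 for Tgtp2, and the longest coding transcript of Irgm1 has 2259. For other family genes over 3000 bases the ratio was 0.152 (Gm5431), 0.178 (Gm12185), 0.203 (9930111J21Rik1), 0.443 (F830016B08Rik), 0.483 (9930111J21Rik2) and 0.939 (Irgq). For those under 3000 bases it was 0.8 (Gm4951), 0.868 (Gm12250), 0.869 (Ifi47), 1.16 (Gm4841) and 0.195 (Gm12187). Gm12187 was under 1 CPM, with 4 reads in Dicer1-deleted library 2. Gm4841 was also low, at 1.12 CPM and 44 reads in that library. Control library 2 was near Dicer1-deleted library 2 for Irgm1 (137 against 126 CPM), Irgm2 (27.65 against 31.56) and Gm5431 (4.98 against 4.78). It was also near for Gm12185 (1.26 against 1.42) and 9930111J21Rik1 (9.5 against 9.9), but not for Iigp1 (214 against 117). The part of transcript length in this division was not tested. With a correction for transcript length in each library, the log2 fold changes were 0.45 for Irgm1, 0.60 for Irgm2, 0.58 for Igtp, 0.59 for Iigp1, 1.04 for Tgtp1 and 0.94 for Tgtp2, with no member past the threshold in edgeR.

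The titles carry a code, L4 or L5, whose meaning the labels do not give, with 2 Dicer1-deleted and 1 control library under L4 and 1 and 3 under L5. Within L4 the log2 difference was 0.65 for Tgtp1, 0.55 for Tgtp2, 0.32 for Igtp, 0.41 for Irgm1, 0.79 for Irgm2 and -0.18 for Iigp1. Within L5 it was 1.42 for Tgtp1, 1.35 for Tgtp2, 0.92 for Igtp, 0.94 for Irgm1, 1.05 for Irgm2 and 2.05 for Iigp1. Under L4 the control had 214 CPM of Iigp1, between the 117 and 305 CPM of the Dicer1-deleted libraries, and the difference is one of mean logs. These differences rest on a single library in 1 of the groups and carry no test.

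Levels of different genes were compared on the deposited RPKM values, which are per length. In the controls the order of mean RPKM was Iigp1 (65.7 ± 53.8), Igtp (49.7 ± 5.75), Tgtp2 (32.3 ± 7.77), Irgm1 (30.9 ± 8.03), Tgtp1 (17.2 ± 3.35) and Irgm2 (13.1 ± 5.98, all SD, n = 4). Iigp1 ranged from 11.2 to 139 RPKM over the controls, so its place was not distinct from Igtp. Tgtp2 and Irgm1 overlapped, as did Tgtp1 and Irgm2, while Igtp was above Tgtp2 and Irgm1 above Tgtp1 in every control. The places of Tgtp1 and Tgtp2 rest on the deposited split of reads between the copies, which is uncertain. In the Dicer1-deleted libraries the order of the means was the same, from 102 ± 71.4 RPKM for Iigp1 to 19.6 ± 11.1 for Irgm2 (SD, n = 3). The place of Irgm1 depended on the length used. The RPKM values imply a length of 5810 bases for it, and on its longest transcript of 3832 bases or its longest coding transcript of 2259 bases the control mean was 47.2 or 80.0 CPM per kilobase.

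Regulators made up 38.8%, 43.8% and 41.4% of the summed RPKM of the 6 members in the Dicer1-deleted libraries, and 48.2%, 39.8%, 65.8% and 37.0% in the controls. The groups overlapped, and control library 3 had the highest share. With CPM per kilobase of the longest coding transcript in place of RPKM, the shares were 48.4%, 50.2% and 51.4% in the Dicer1-deleted libraries and 57.0%, 48.1%, 74.1% and 46.9% in the controls, with control library 3 again the highest. In control library 3 Iigp1 was 8.15% of the summed RPKM, against 25.9% to 43.5% in the other controls. The summed RPKM of the 6 members was 486, 178.5 and 316.5 in the Dicer1-deleted libraries and 187, 191, 137 and 320 in the controls.

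The low Iigp1 of control library 3 extended to other family genes of its group on chromosome 18, a pattern picked out after the values were seen. Iigp1 stood at 33.3 CPM there and at 154 to 437 CPM in the other controls. Gm4951, a family gene of the same group, had 6.96 CPM against 35.2 to 60.7, and F830016B08Rik had 0.474 against 7.38 to 16.3. For Gm4841, of the same group but at under 1 CPM in the controls, the values were 0.182 against 0.269 to 0.638. On chromosome 11 the same library was below every other control for Igtp, Tgtp1, Tgtp2, Gm12250 and Ifi47, by smaller ratios. The median of the other controls was 1.64 times its level for Tgtp2 and 1.09 times for Gm12250, against 6.43 times for Iigp1. It was within the other controls for Irgm1, at 184 CPM against 137 to 239, and above them for Gm5431, at 25.4 against 4.98 to 14.7. Outside the family, control library 3 had 8.50 CPM of Cxcl9 against 77.2 to 111 in the other controls, and 7.00 of Gbp8 against 20.2 to 34.6. For Cxcl11 it was above them, at 3.43 against 2.42 to 2.68 CPM. Without control library 3 the log2 fold change of Iigp1 was 0.27.

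**Figure D5:**
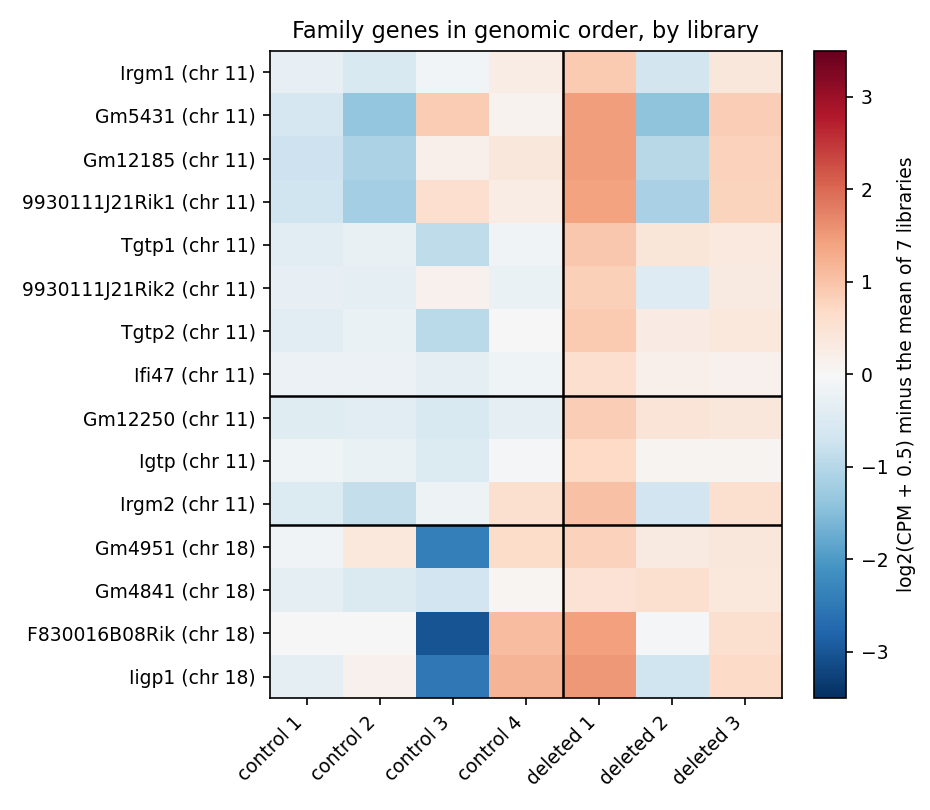
Log2(CPM + 0.5) of 15 family genes in genomic order, each minus its mean over the 7 libraries, with lines between the 3 genomic groups and between control and Dicer1-deleted libraries. Control library 3 is low for Iigp1, Gm4951 and F830016B08Rik on chromosome 18, and Dicer1-deleted library 2 is low for Irgm1, Gm5431, Gm12185, 9930111J21Rik1, Irgm2 and Iigp1. Control library 2 is near Dicer1-deleted library 2 for these genes except Iigp1.

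Other genes of the family were read from a list of 17 that holds the 6 members. Of its other genes, 10 were tested and Irgc1 fell below the filter on low counts. Of these 10, 8 had a positive log2 fold change, with a median of 0.74 and a range of -0.35 to 1.47. In edgeR 0 of the 10 passed and 2 had an unadjusted p under 0.05, while in DESeq2 1 passed. That gene was Gm12250, known as Irgb10, an effector that also attacks the membranes of bacteria, which GENCODE annotates as a processed pseudogene.

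Gm12250 had 122, 91.5 and 88.4 CPM in the Dicer1-deleted libraries, against 50.0, 50.6, 46.4 and 53.3 CPM in the controls. The controls lay within a narrow band, and every Dicer1-deleted library was above it. The log2 fold change was 1.01 ± 0.23 (SE), with an edgeR adjusted p of 0.190 and a DESeq2 adjusted p of 0.000812. Unlike that of Tgtp1, the DESeq2 call of Gm12250 held in all 7 fits that each left out a library, with adjusted p-values of 0.00388 to 0.0416.

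Ifi47, known as Irg47 or Irgd and chosen after its values were seen, had 282, 212 and 206 CPM in the Dicer1-deleted libraries, against 160, 161, 145 and 167 CPM in the controls. The groups did not overlap. The log2 difference in edgeR was 0.56 ± 0.24 (SE, edgeR adjusted p = 0.593).

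The remaining family genes were lower in level. Gm4841 stood apart between groups at 0.896 to 1.12 CPM in the Dicer1-deleted libraries and 0.182 to 0.638 CPM in the controls, with a log2 fold change of 1.47 ± 0.60 (SE) that did not pass in edgeR or DESeq2. The log2 fold change was 1.03 for Gm12185, 0.78 for 9930111J21Rik1, 0.75 for Gm5431, 0.73 for F830016B08Rik, 0.55 for Gm4951 and 0.49 for 9930111J21Rik2. All of these 6 overlapped between groups. Irgq had a log2 fold change of -0.35, and Gm12187 of -0.04, a value that changed sign under several alternatives.

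Genes that act with the family were read from lists. Among 14 genes of interferon gamma signalling, 9 were positive with a median log2 fold change of 0.44. In edgeR 0 passed, 3 had an unadjusted p under 0.05, and DESeq2 called Irf8, a transcription factor of myeloid cells. Irf8 had 55.5, 109 and 80.3 CPM in the Dicer1-deleted libraries, against 30.7, 42.3, 24.8 and 37.2 CPM in the controls. Its DESeq2 call was kept in 3 of 7 fits with a library left out and lost without Dicer1-deleted library 2 or 3 or control library 1 or 3 (adjusted p of 0.0614 to 0.0862). Ifngr2, the signalling chain of the interferon gamma receptor, had 97.0, 103 and 107 CPM against 62.3, 67.1, 74.3 and 67.4 CPM, with a DESeq2 adjusted p of 0.0526.

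Of the 15 listed targets of interferon gamma, 13 were tested and 11 were positive, with a median log2 fold change of 0.75. In edgeR 0 passed and 7 had an unadjusted p under 0.05, while DESeq2 called Cxcl9, Cxcl10, Cxcl11 and Tap1 as higher. Cxcl10, a chemokine that draws T cells, had 483, 837 and 406 CPM in the Dicer1-deleted libraries, against 231, 220, 187 and 217 CPM in the controls. Dicer1-deleted library 2 was the highest for Cxcl10, unlike for Irgm1, Irgm2 and Iigp1. Cxcl9, a chemokine of the same receptor, had 311, 510 and 193 CPM against 101, 77.2, 8.50 and 111 CPM, with control library 3 the lowest as it was for Iigp1. The DESeq2 call of Cxcl9 was lost without Dicer1-deleted library 1 or 2 or control library 1 or 2 (adjusted p up to 0.559), whereas those of Cxcl10, Cxcl11 and Tap1 held in all 7 fits with a library left out. Cxcl11 had 7.04 to 12.6 CPM against 2.42 to 3.43 CPM. Tap1, a peptide transporter of antigen presentation, had 84.6 to 121 CPM against 39.6 to 57.6 CPM. Nlrc5, an activator of such genes, had 52.0 to 68.1 CPM against 25.9 to 47.7 CPM. It passed in neither tool, with an edgeR adjusted p of 0.424 and a DESeq2 adjusted p of 0.170.

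The guanylate-binding proteins are larger interferon-induced GTPases that meet the effectors on the same vacuoles. All 8 tested were positive with a median log2 fold change of 1.07. In edgeR 0 passed and 5 had an unadjusted p under 0.05, and DESeq2 called Gbp8 (adjusted p = 0.0282). Gbp8 had 76.0, 66.0 and 56.2 CPM in the Dicer1-deleted libraries, against 22.9, 20.2, 7.00 and 34.6 CPM in the controls. Its DESeq2 call was kept only without control library 3 or 4, and the adjusted p reached 0.175 in the other 5 fits with a library left out.

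Genes that direct the GTPases to vacuoles, among them the Atg conjugation genes, were read the same way. Of 13 tested, 4 were positive, with a median of -0.08. No gene passed in edgeR or DESeq2, and 0 had an unadjusted p under 0.05 in edgeR. Among 19 genes induced by type I interferon, 10 were positive with a median of 0.06, and 0 passed in edgeR or DESeq2 while 1 had an unadjusted p under 0.05 in edgeR. That median was not steady, at 0.62 with the L code as covariate, 0.47 with sample quality weights, 0.47 without control library 3 and -0.23 without control library 2.

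The genes whose pattern was most like the mean of the 6 members over the 7 libraries were found among 8592 genes with a mean of at least 10 CPM. They were Serpinb9 (Pearson r = 0.990), Gbp2 (0.975), Gm43302 (0.971), ENSMUSG00000054588 (0.963), Prr5l (0.962), Nlrp1b (0.954), Irf1 (0.954), G6pdx (0.950), Camk1d (0.947) and Gbp4 (0.936). Serpinb9 encodes an inhibitor of granzyme B and Irf1 a transcription factor induced by interferon gamma. The 7 points share library depth and quality, and r is a description. The levels were centred but not scaled, so members that varied more, Iigp1 above all, weigh more in that mean than Igtp and the Tgtp pair. Gbp2 had 1013, 377 and 629 CPM in the Dicer1-deleted libraries, against 336, 231, 151 and 541 CPM in the controls, and like Iigp1 it was lowest in control library 3.

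Markers of other cells moved with the groups in part. Ifng itself stood at 1.29, 0.152 and 0.427 CPM in the Dicer1-deleted libraries, and at 0, 0.0449, 0 and 0.365 CPM in the controls. It was highest in Dicer1-deleted library 1 and, among the controls, in library 4, as were all 6 members. Its log2 fold change, of very low counts, was 2.6 ± 1.39 (SE, edgeR adjusted p = 0.746). The part of Ifng in the levels of the members was not tested. The 20 markers of T and natural killer cells summed to 15.8 to 36.6 CPM in the Dicer1-deleted and 15.7 to 21.5 CPM in the control libraries. Of the 18 tested, 14 were positive, with a median log2 fold change of 1.45, above that of each interferon list. These fold changes are of low counts, and the summed levels overlapped between groups. In edgeR 0 of them passed and 8 had an unadjusted p under 0.05, as had 8.01% of all genes tested. DESeq2 called 1 of these markers as higher and 1 as lower. Cd3e, Cd3d, Gzma and Ncr1 were below 1 CPM in every library.

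Markers of B cells summed to 112 to 155 CPM in the Dicer1-deleted and 35.7 to 75.4 CPM in the control libraries, with 3 of 4 tested positive and Cd79a and Pax5 among the markers below 1 CPM throughout. Markers of neutrophils summed to 156.5 to 233 and 63.4 to 139 CPM, with 5 of 5 positive and Ly6g below 1 CPM. Markers of stroma and tumor cells summed to 46.8 to 84.2 and 17.9 to 24.2 CPM, with 6 of 8 positive and Epcam, Krt18 and Col1a1 below 1 CPM. Markers of dendritic cells summed to 6.35 to 9.69 and 4.08 to 31.2 CPM, with 3 of 6 positive and Itgae and Siglech below 1 CPM. In edgeR 0 markers of these 4 lists passed, and 2, 3, 1 and 3 had an unadjusted p under 0.05 for B cells, neutrophils, stroma and dendritic cells. DESeq2 called 2 B cell, 1 neutrophil and 1 stroma marker as higher, and 1 dendritic cell marker as higher and 1 as lower. The part of these cells in the levels of the GTPases was not tested.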

How the data were processed

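Per the file headers, the authors deposited for each library a table of genes with unique read counts, expected counts in which a read that fits several genes adds a fraction to each, and RPKM, for which neither lengths nor totals are stated. Bowtie2 is named in the submitters' processing notes, with no version. Which build, annotation and counter they used is not given in the sources used here. Per the labels' protocols, amplified cDNA was sequenced as read pairs from a kit that keeps no strand. All unique counts were even, as when both mates of a pair are counted. Reads are PCR products without molecular identifiers, so depth overstates the precision.

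Ensembl IDs were matched to GENCODE mouse release M21 (GRCm38), with 21813 matched and 2271 without a symbol. Unique counts were tested in edgeR 4.0.16 (filterByExpr, TMM, quasi-likelihood F test, Benjamini-Hochberg over 16226 genes, threshold 0.05), and the biological coefficient of variation was 45.1%. DESeq2 1.42.0 and limma 3.58.1 were alternatives, and the workflow was tested on simulated data. The members and lists were chosen with earlier results of these data known. All members were named, with family genes that passed the filter, genes of each pathway list called by edgeR or DESeq2 or with no overlap at a mean of at least 20 CPM, and the 10 most alike genes. Psmb9, Gbp5, Gbp6 and Gbp10 were listed but not analysed here, and individual values of some other listed genes are not reported here. Likeness used log2(CPM + 0.5). Positions in promoters are counted from the first transcribed base, with base -1 just before it.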

Additional observations from a re-analysis of the deposited data

How the results depend on the processing

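No paired analysis was possible because the titles number the libraries from 1 to 7 with no number shared between groups. Under 19 alternatives with a test each member kept a positive log2 fold change. DESeq2 alone called a member, Tgtp1 (1.01, adjusted p = 0.0358, against up to 0.634 in other alternatives), and kept the call without control library 4 (1.13), losing it when any other library was left out. Within the L codes, which leave no test, Iigp1 changed sign under L4 (-0.18), Igtp was 0.92 under L5, Tgtp1 was 0.65 under L4 and 1.42 under L5, and Tgtp2 was 1.35 under L5. With a library left out, Irgm1 ranged from 0.10 to 0.80, Irgm2 from 0.21 to 0.94, Igtp from 0.31 to 0.65, Iigp1 from 0.01 to 1.27, Tgtp1 from 0.78 to 1.11 and Tgtp2 from 0.68 to 1.04.

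The number of genes called, 4 in edgeR, was 405 in DESeq2, 2 in limma-voom, 80 with sample quality weights, 42 without a filter, 1 with a filter of 10 CPM in 3 libraries, 0 with the L code as covariate, 11 with the length correction, and 0 to 3 with a library left out. In DESeq2 it was 319, 338 and 396 without Dicer1-deleted libraries 1 to 3 and 237, 333, 304 and 370 without control libraries 1 to 4. Called list genes, 0 in edgeR with its filter, were in DESeq2 2 of the family, 1 of interferon gamma signalling, 4 of its targets and 1 of the guanylate-binding proteins, and with quality weights 1 of the targets. Without a filter edgeR called the target Cxcl11 (1.88, adjusted p = 0.0480). With a library left out, the median of the targets ranged from 0.67 to 1.16, the highest being without control library 4. That of the family ranged from 0.21 without Dicer1-deleted library 1 to 1.0 without library 2, of the guanylate-binding proteins from 0.66 to 1.41, of interferon gamma signalling from 0.37 to 0.49, of the vacuole list from -0.12 to 0.07 and of the type I interferon list from -0.23 to 0.47. Gm12187, at under 1 CPM, turned positive in limma-voom (0.62), with quality weights (1.14) and with the L code (1.77). It was also positive with Dicer1-deleted library 2 (0.39), 3 (0.18) or control library 3 (0.80) left out. Over the edgeR fits with a library left out it ranged from -1.12 to 0.80. The cause of these changes was not tested. The control mean of Irgm1 per kilobase was 47.2 on the longest and 80.0 CPM on the longest coding transcript. The added alternatives, chosen after seeing the data, were the length correction, the L code splits, limma-voom for the lists, DESeq2 with a library left out, and levels and regulator shares on the longest coding transcript. With 3 and 4 libraries and this spread, the intervals of 4 members include 0.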
